A study of Homo sapiens with 12 samples.

Results

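The DNAJ genes encode the J-domain proteins, the co-chaperones of HSP70, and here they were described by whether heat shock factor 1 (HSF1) occupied their promoters in the liver cancer line Huh7. Members were protein-coding genes of GENCODE release 44 on hg38 whose symbol begins with DNAJA, DNAJB or DNAJC followed by a number, with DNAJB1 left out, which gave 44 of 20033 protein-coding genes. Of these, 4 were DNAJA, 11 DNAJB and 29 DNAJC genes. A member was called bound when the summit of an HSF1 CUT&Tag peak, its highest point, lay within 1 kb of any annotated transcript start.

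The study asked how HSF1 shapes chromatin and transcription in hepatocellular carcinoma. In CUT&Tag a transposase is tethered by an antibody to the protein of interest and inserts sequencing adapters into the DNA nearby. Huh7, a human hepatocellular carcinoma line, was labelled wild type and untreated, and gave 1 library with an HSF1 antibody and 1 with an antibody to H3K27ac, a histone mark of active promoters and enhancers. There were no replicates, so nothing below has a replicate check and no test was made, and the control without primary antibody was not analysed here. The HSF1 library held 2712212 tags after removal of duplicates and 7147 peaks on chromosomes 1 to 22, X and Y, the H3K27ac library 896393 tags (5.70% of the tags given to the peak caller) and 1299 peaks. No expression data were used here, so occupancy could not be set beside transcript level, nor the liver origin of the cells checked against marker genes.

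J-domain proteins bring unfolded or specialized clients to HSP70 and stimulate its ATPase through a conserved J domain, while nucleotide exchange factors reset the cycle. DNAJA proteins carry the full domain order of bacterial DnaJ, DNAJB proteins share the glycine- and phenylalanine-rich region, and DNAJC proteins share little but the J domain and work in many compartments. HSF1 is the main transcription factor of the heat shock response and binds as a trimer to inverted repeats of GAA, the heat shock element. The CCAAT box is the site of NF-Y, a factor found at many promoters.

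HSF1 summits lay at the starts of 18 of the 44 DNAJ genes (40.9%, Wilson 95% interval 27.7 to 55.6%), beside a background of 25.4% of all protein-coding genes (5098 of 20033, 24.8 to 26.1%). The classes differed in count. None of the 4 DNAJA genes was bound, which leaves a share of up to 49.0%, while 5 of 11 DNAJB genes (45.5%, 21.3 to 72.0%) and 13 of 29 DNAJC genes (44.8%, 28.4 to 62.5%) were. The intervals of the classes overlap, and they cover counting error only. The 18 members drew on 17 peaks, since DNAJC25 and its readthrough gene DNAJC25-GNG10 share a promoter. No member had a second HSF1 summit at a start, as 282 of the bound protein-coding genes did.

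**Figure D1:**
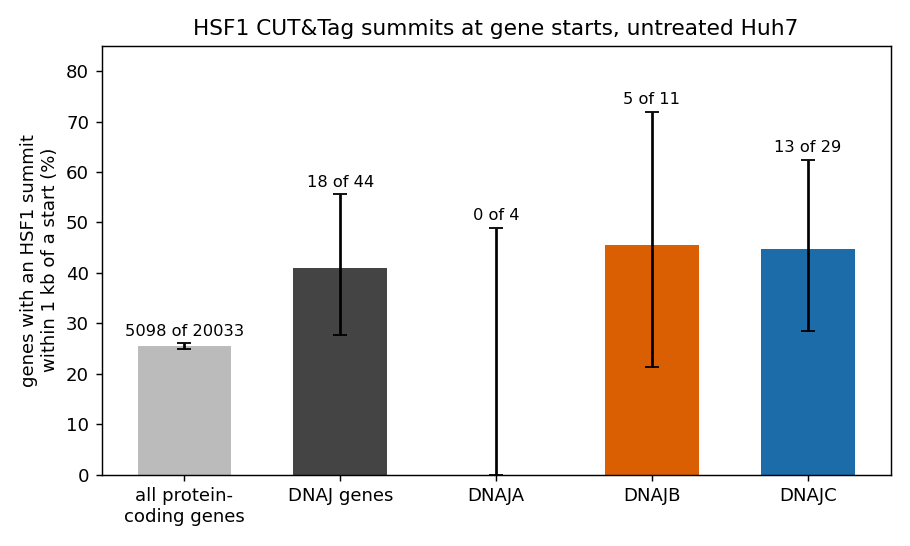
Bars give the percent of genes with an HSF1 summit within 1 kb of a start in the 1 untreated Huh7 library, with the counts above them and Wilson 95% intervals as error bars, for all protein-coding genes, the DNAJ genes and their 3 classes. The DNAJ bar stands at 40.9% beside 25.4% for all protein-coding genes, and DNAJA has no bound gene.

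Sequence from the window around the strongest summit of each bound class is shown first, because the description of motifs below rests on such windows, taken in full. DNAJB9 had the highest fold enrichment of the DNAJB genes and DNAJC21 that of the DNAJC genes. Sequences are hg38, 5′ to 3′ on the coding strand of the gene, which is the plus strand for all genes shown except DNAJB7. DNAJC21 is given for 100 bp to either side of the summit (chr5:34929291-34929491), and DNAJB9 for the 63 bp of that window outside any annotated exon (chr7:108569751-108569813), since its summit lies in an exon of a longer THAP5 transcript on the other strand. The stretch printed for DNAJB9 thus leaves out the summit itself. Neither full window held a CCAAT box or a heat shock element, so no base is in capitals.
DNAJC21: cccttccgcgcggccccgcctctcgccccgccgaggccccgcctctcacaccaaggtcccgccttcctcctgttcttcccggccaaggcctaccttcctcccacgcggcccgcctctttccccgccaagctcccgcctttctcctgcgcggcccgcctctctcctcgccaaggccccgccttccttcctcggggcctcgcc
DNAJB9: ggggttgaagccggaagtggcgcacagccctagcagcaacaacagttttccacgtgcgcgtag

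Occupancy at the bound members was of ordinary height. Fold enrichment, the pileup of tags at the summit plus 1 over the local background plus 1, had a median of 7.18 in the 18 members (range 5.42 to 10.8), beside 7.29 in all bound protein-coding genes. Median pileup, the count of extended tags that cover the summit, was 14 in both sets, and ranged from 8 to 27 in the members. On each measure, 8 of the 18 members lay above the median of all bound genes. The 5 DNAJB genes had a median fold enrichment of 7.82 and a pileup of 18, and the 13 DNAJC genes 7.14 and 13. The exact Poisson 95% interval of the pileup held the background median of 14 in 15 members and lay above it in 3, DNAJB5, DNAJB9 and DNAJC21. Local background, recovered from the pileup and fold enrichment, had a median of 0.960 tags in the members and 1.02 in all bound genes.

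**Figure D2:**
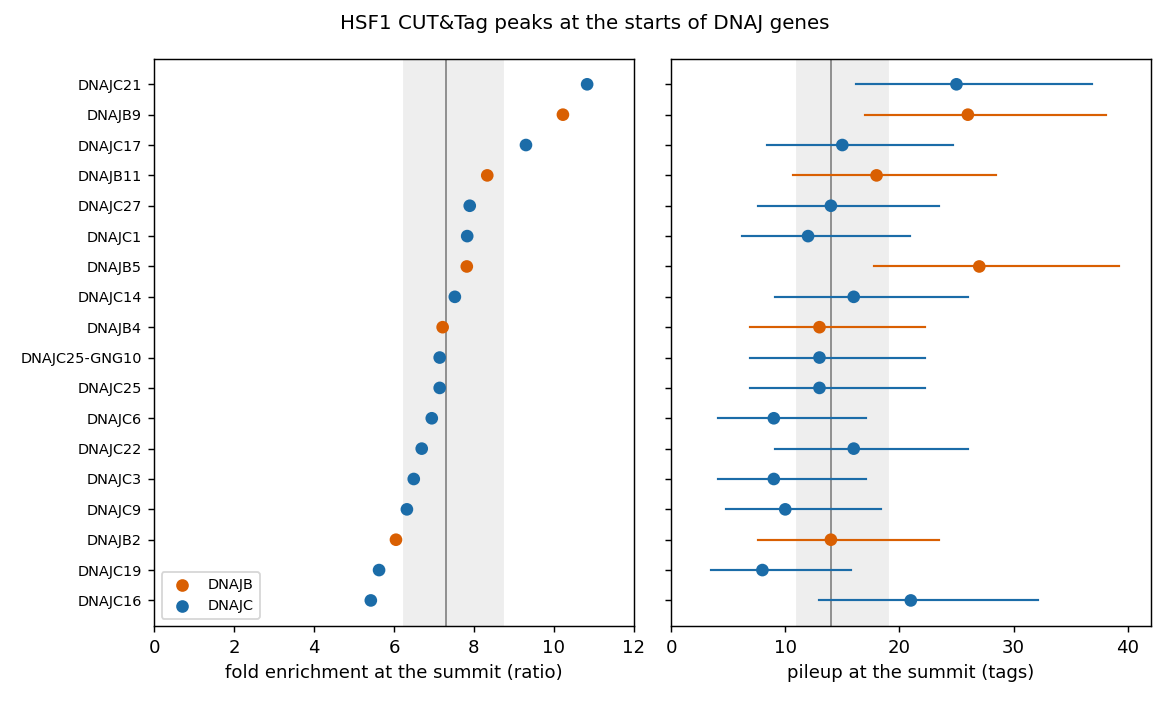
Fold enrichment (left, a ratio) and pileup (right, tags, with exact Poisson 95% intervals) at the summit of each of the 18 bound DNAJ genes, ordered by fold enrichment, with the median and the interquartile range of all bound protein-coding genes as a grey line and band. DNAJC21, DNAJB9 and DNAJC17 have fold enrichments above the band, and DNAJB2, DNAJC19 and DNAJC16 lie below it.

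The members are described by lists of where their proteins act. A member in none of the lists may still act in one of these places, so the shares are those of the lists. These lists are short, and for each of them the interval of the share bound holds the 25.4% of all protein-coding genes. Of the 7 DNAJ genes listed for the endoplasmic reticulum, 4 were bound (57.1%, 25.05 to 84.2%). DNAJB9 (ERdj4), a co-chaperone of BiP, had a pileup of 26 (17.0 to 38.1) and a fold enrichment of 10.2, higher than 89.7% of bound protein-coding genes, with its summit at position 108569713 of chromosome 7, 154 bp upstream of the nearest start. DNAJB11 (ERdj3), a soluble BiP co-chaperone, had a pileup of 18 (10.7 to 28.4) and a fold enrichment of 8.33 at position 186570542 of chromosome 3, 158 bp upstream of the nearest start and inside an exon of a longer transcript. DNAJC1, an ER membrane protein, had a pileup of 12 (6.20 to 21.0) and a fold enrichment of 7.83, 33 bp upstream of a start. DNAJC3 (p58IPK), a lumenal protein of the unfolded protein response, was lower, with a pileup of 9 and a fold enrichment of 6.49. The list's other genes, the membrane proteins DNAJB12 and DNAJB14 and the disulfide reductase DNAJC10 (ERdj5), had their nearest summits at 9.33, 3.86 and 384 kb.

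Members listed for the nucleus, RNA or ribosomes were bound in 3 of 5 cases (60%, 23.1 to 88.2%) and included the strongest DNAJ peak. DNAJC21, a factor of large ribosomal subunit maturation, had the highest fold enrichment of all members, 10.8, higher than 93.3% of bound protein-coding genes, with a pileup of 25 (16.2 to 36.9) at position 34929391 of chromosome 5, 168 bp upstream of a start. DNAJC17, which carries an RNA recognition motif, reached a fold enrichment of 9.30 with a pileup of 15 (8.40 to 24.7), 112 bp upstream of a start on chromosome 15. DNAJC9, a histone chaperone, had a pileup of 10 (4.8 to 18.4) and a fold enrichment of 6.32, 233 bp downstream of a start. The ribosome-associated DNAJC2 and the spliceosome-associated DNAJC8 were not bound, with the nearest summits 19.7 and 14.2 kb away.

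Among the general folding factors listed for the cytosol and nucleus, 3 of 8 were bound (37.5%, 13.7 to 69.4%), all of class B. DNAJB5 had the highest pileup of all members, 27 (17.8 to 39.3), and a fold enrichment of 7.82 over a local background of 2.58 tags, 161 bp upstream of a start on chromosome 9. DNAJB4, like DNAJB5 a close relative of DNAJB1, had a pileup of 13 (6.92 to 22.2) and a fold enrichment of 7.22. Its summit, at position 77979194 of chromosome 1, lay 19 bp inside an alternative first exon next to FUBP1, 25745 bp upstream of the gene's canonical start. The outermost start of GIPC2, a protein-coding gene on the same strand as DNAJB4, also lay within 1 kb of that summit. DNAJB2, which passes clients to the proteasome, had a pileup of 14 and a fold enrichment of 6.05, 7 bp from a start, the shortest distance among the members.

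None of the 4 DNAJA genes had an HSF1 summit near a start. The nearest summits lay 42.4 kb from DNAJA1 and 40.6 kb from DNAJA2, both cytosolic, 83.3 kb from the mitochondrial DNAJA3 and 20.3 kb from DNAJA4. DNAJB6, a suppressor of protein aggregation, and DNAJC7, which also contacts HSP90, were not bound either, with summits 197 and 134 kb away. A peak list holds only places that passed the caller's cutoff, and its lowest peak had a pileup of 4, so these genes had no peak at this depth, which is not an absence of HSF1.

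Members listed as mitochondrial and as vesicular were each bound in 1 of 5 cases (20%, 3.62 to 62.4%), close to the background share. Of 5 mitochondrial members only DNAJC19, an inner membrane protein, had a summit, the member with the lowest pileup at 8 (3.45 to 15.8) and a fold enrichment of 5.63, 43 bp into an exon. DNAJA3, DNAJC11, DNAJC15 and DNAJC30 had nearest summits at 83.3, 26.0, 246 and 105 kb. Of 5 members of vesicles and clathrin coats, only DNAJC6 (auxilin), which uncoats clathrin with HSP70, was bound, with a pileup of 9 (4.12 to 17.1) and a fold enrichment of 6.94 in an intron 629 bp downstream of a start. The synaptic vesicle protein DNAJC5, its relatives DNAJC5B and DNAJC5G, and the endosomal DNAJC13 lay 30.04, 69.9, 79.0 and 195 kb from a summit. The testis genes DNAJB7, DNAJB8 and DNAJB13 had none closer than 5.42, 21.1 and 18.0 kb.

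The 11 members in none of these lists included 6 bound genes (54.5%, 28.01 to 78.7%). Unlike those of the lists, this interval lies above the 25.4% of all protein-coding genes. However, the count takes DNAJC25 and DNAJC25-GNG10 as separate genes although they share a peak. An interval with this pair counted once was not computed. DNAJC27, which joins a Rab-like GTPase to a J domain, had a pileup of 14 (7.65 to 23.5) and a fold enrichment of 7.89. Its summit lay in an exon, 53 bp downstream of the nearest start but 54 bp upstream of the canonical start. DNAJC14, a membrane protein, had a pileup of 16 (9.15 to 26.0) and a fold enrichment of 7.52 in an intron, 199 bp upstream of its nearest start. DNAJC25 and DNAJC25-GNG10 shared a peak with a pileup of 13 and a fold enrichment of 7.14, 136 and 188 bp upstream of their starts. These stood near the middle of all bound genes. DNAJC22 had a pileup of 16 and a fold enrichment of 6.69, but its summit lay 1021 bp downstream of the canonical start and was counted through an inner start 99 bp away. DNAJC16 had a pileup of 21 (13.0 to 32.1) over the highest local background among the members, 3.06 tags, and so the lowest fold enrichment, 5.42. Of the 5 that were not bound, DNAJC4 and DNAJC18 lay 7.78 and 10.3 kb from a summit, DNAJC28 11.4 kb, DNAJC24, a diphthamide synthesis protein, 83.5 kb, and DNAJC12 237 kb.

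Bound summits lay within 1 kb of a start by definition, so their distances only describe positions inside that limit. The median distance was 145 bp in the members (7 to 629 bp) and 94 bp in all bound protein-coding genes, and 17 of 18 members (94.4%) had theirs within 250 bp, beside 81.8% of all bound genes. The summit lay upstream of the nearest start in 13 members and downstream in 5, a count not made for all bound genes. The 1 kb limit cut through an empty stretch, since the member nearest to it inside was DNAJC6 at 629 bp and the nearest outside was DNAJB14 at 3.86 kb. The 26 unbound members had their nearest summit at a median of 35.3 kb (3.86 to 384 kb), and none held a summit within the gene.

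Other genes were counted here by their outermost annotated start only, and their inner transcript starts were not searched. The summit lay within 1 kb of another gene's outermost start in 14 of 18 members (77.8%), beside 50.6% of all bound protein-coding genes. DNAJC25 and DNAJC25-GNG10 counted for each other. In 5 members (27.8%) that gene was protein-coding on the opposite strand, beside 25.8% of all bound genes. These divergent partners were FUBP1 for DNAJB4, PNPLA8 and THAP5 for DNAJB9, TBCCD1 for DNAJB11, CASP9 for DNAJC16 and ZFYVE19 for DNAJC17. An opposite-strand long noncoding RNA started within 1 kb of the summit at DNAJB5, DNAJC3, DNAJC9, DNAJC19, DNAJC27, DNAJC25 and DNAJC25-GNG10. Such noncoding starts were not counted for all bound genes. DNAJB2, DNAJC1, DNAJC21 and DNAJC22 had no other gene's outermost start within 1 kb of the summit. To which gene an occupied shared promoter relates was not tested.

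**Figure D3:**
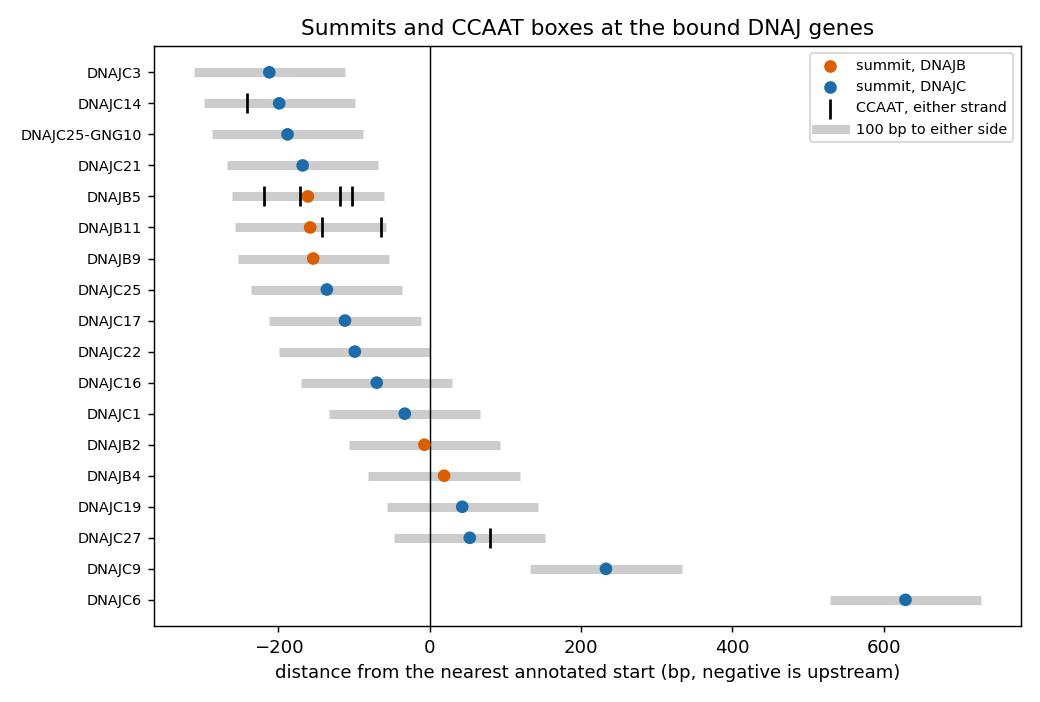
Position of the HSF1 summit (dot) relative to the nearest annotated start in bp, negative upstream, for the 18 bound DNAJ genes, with the 100 bp to either side as a grey bar and each CCAAT pentamer on either strand as a tick. All summits but that of DNAJC6 lie within 250 bp, and ticks appear at DNAJB5, DNAJB11, DNAJC14 and DNAJC27.

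CCAAT boxes lay at the summits of 4 bound members. The pentamer CCAAT, on either strand (ATTGG on the other), lay wholly within 100 bp of the summit in 4 of 18 bound members (22.2%, 9.0 to 45.2%), beside 36.5% of all bound protein-coding genes (1862 of 5098). The members' interval holds the background share. In windows 5 kb to either side of the same 17 peaks it occurred in 10 of 34 (29.4%), beside 4 of 17 summits (23.5%), while for all bound genes summits held it more often (36.1%) than flanks (23.7%). The flanks were lower in GC, with a median of 39.6% beside 66.7% at the members' summits. Of the 8 pentamers found, DNAJB5 held 4, all in the direction of the gene, 219, 171, 118 and 103 bp upstream of the start. DNAJB11 held 2 against the gene's direction, 143 and 64 bp upstream. DNAJC14 held 1 at 241 bp upstream and DNAJC27 1 at 80 bp downstream of the nearest start, both against the gene's direction. The canonical start of DNAJC27 lies 107 bp from that start, and the box is upstream of it. DNAJB5 and DNAJB11 are printed as the members with more than 1 box, a choice made after their values were seen. DNAJB5 is given in full (chr9:34989380-34989580) and DNAJB11, whose window is exonic, for 30 bp around the box nearer to the summit (chr3:186570542-186570571). Capitals mark CCAAT or its complement.
DNAJB5: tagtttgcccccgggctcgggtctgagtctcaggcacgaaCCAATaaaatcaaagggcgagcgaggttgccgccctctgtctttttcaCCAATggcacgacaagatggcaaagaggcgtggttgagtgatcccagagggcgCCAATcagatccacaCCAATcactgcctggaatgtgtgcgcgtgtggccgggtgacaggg
DNAJB11: gtctccgcttctaATTGGtcaagagctgcg

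No bound member carried a heat shock element at its summit. The element was searched as GAANNTTCNNGAA on both strands, allowing 1 mismatch among the 9 fixed bases, within 100 bp of the summit, and was found in 0 of 18 members (Wilson upper limit 17.6%) beside 2.37% of all bound protein-coding genes (121 of 5098). At such a background 0 of 18 is not a difference that this number of genes can show. The best match held 5 fixed bases in 6 members, 6 in 8 members and 7 in 4 members, DNAJB2, DNAJB4, DNAJB11 and DNAJC14. Of the 5098 bound protein-coding genes, the best match held 5 bases in 1141, 6 in 2959 and 7 in 864. A further 104 had a summit with 8 bases and 17 with all 9. In the windows 5 kb away, the element occurred in 2 of 34 (5.88%), beside 4.49% of such windows for all bound genes. At the summits of all bound genes, with each peak counted once, it occurred in 2.16%, so there too it was rarer at summits than in flanks.

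Heat shock elements occurred at the starts of 6 DNAJ genes, of which 1 was bound, beside 194 of the 930 protein-coding genes with such an element (20.9%). From 250 bp upstream of the canonical start to 50 bp downstream, 6 of 44 DNAJ genes (13.6%) held an element with at most 1 mismatch, beside 4.64% of all protein-coding genes. The 5 unbound genes made up 19.2% of the 26 unbound members, beside 4.93% of all unbound protein-coding genes, while among bound genes 5.56% of members and 3.81% of all held an element. The bound member with an element, DNAJB4, had its peak at the alternative start, far from the element. All 9 fixed bases matched at DNAJA1 and DNAJB6. The 13 bases of each element are printed on the gene's coding strand, with matched fixed bases in capitals, because these are the sites at which an HSF1 peak would be looked for first.
DNAJA1: GAActTTCcaGAA
DNAJB6: GAAccTTCgcGAA
DNAJA4: GAAccTcCgcGAA
DNAJB4: TTCtaGAAagTaC
DNAJB7: TgCctGAAgcTTC
DNAJC15: TTCaaGAAcgTcC

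The element of DNAJA1 (chr9:33025276-33025288) was centered 9 bp after the start, in the first exon, and that of DNAJB6 (chr7:157336873-157336885) 125 bp before it. Those of DNAJA4 (chr15:78264461-78264473), DNAJB4 (chr1:78004841-78004853), DNAJB7 (chr22:40862314-40862326, minus strand) and DNAJC15 (chr13:43023397-43023409) were centered 95, 92, 207 and 183 bp upstream. The surroundings of both complete elements are given, with the element in capitals, for chr9:33025131-33025302 and chr7:157336774-157336965, which leave out further exon sequence. These were also chosen after the values were seen. The match is a description of letters, not of a bound site.
DNAJA1: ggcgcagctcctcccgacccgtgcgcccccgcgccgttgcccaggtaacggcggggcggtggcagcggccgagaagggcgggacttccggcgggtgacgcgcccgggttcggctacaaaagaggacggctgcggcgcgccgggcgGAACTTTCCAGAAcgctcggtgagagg
DNAJB6: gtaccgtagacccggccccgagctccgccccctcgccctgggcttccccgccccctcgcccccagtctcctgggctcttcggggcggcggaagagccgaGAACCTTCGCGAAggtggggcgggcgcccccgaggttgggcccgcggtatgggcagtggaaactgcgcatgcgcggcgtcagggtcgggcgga

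Across the genome, most genes with a complete element at the start had no HSF1 summit either. Of the 73 protein-coding genes with all 9 bases, 21 were bound (28.8%, 19.7 to 40.01%), of the 857 with 8 bases 173 (20.2%, 17.6 to 23%), and of the 19103 with 7 or fewer 25.7%. The CCAAT pentamer in the same promoter stretch was as frequent in bound DNAJ genes (7 of 18, 38.9%) as in unbound ones (10 of 26, 38.5%), while in protein-coding genes it occurred in 44.8% of bound and 33.1% of unbound.

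**Figure D4:**
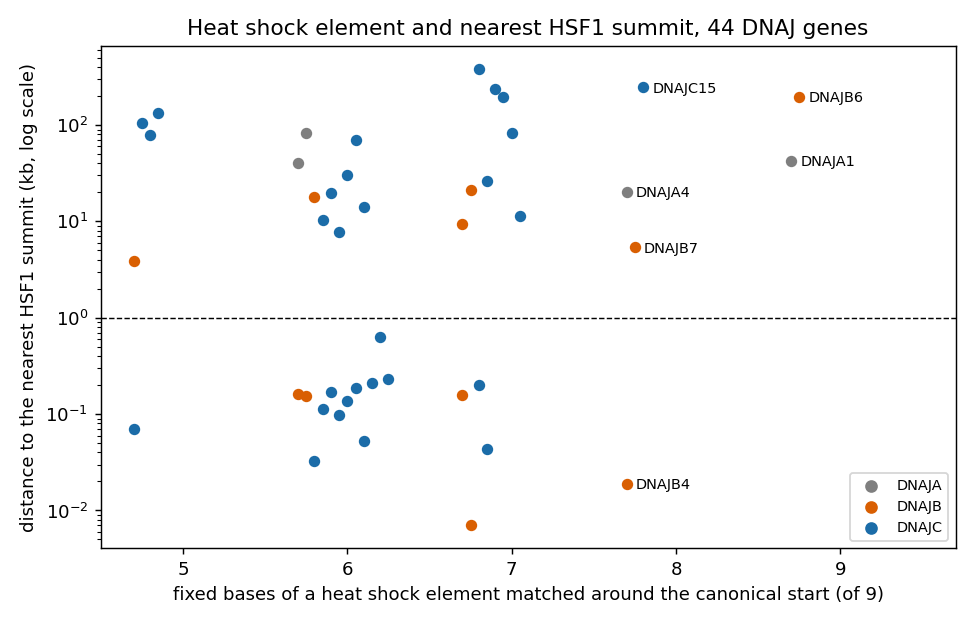
Each point is a DNAJ gene, placed by the number of the 9 fixed bases of a heat shock element matched around its canonical start (points are spread sideways around whole numbers) and by the distance in kb from its nearest start to the nearest HSF1 summit (log scale), with the 1 kb limit dashed. DNAJA1 and DNAJB6, with all 9 bases, lie 42.4 and 197 kb from a summit.

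The share bound moved with features of the promoter in all protein-coding genes, so the members were read beside these. By number of annotated starts, the share went from 8.69% of genes with 1 start over 18.1% (2 to 4 starts) and 29.6% (5 to 9) to 38.4% (10 or more). The members did not follow this order, with 1 of 3, 4 of 13, 9 of 14 and 4 of 14 bound. By GC content around the canonical start, 5.21% of genes under 50%, 21.6% from 50 to 60%, 35.7% from 60 to 70% and 27.6% from 70% were bound. The DNAJ counts in these ranges were 1 of 6, 2 of 5, 11 of 22 and 4 of 11, each a larger share than the background. Bound and unbound members lay close in both features, with medians of 6 and 5.5 starts and of 65.3 and 64.7% GC. The ratio of observed to expected CpG around the canonical start had a median of 0.792 in bound and 0.893 in unbound members. In all protein-coding genes the order was the other way, with 0.865 in bound and 0.713 in unbound genes.

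H3K27ac CUT&Tag peaks lay at DNAJ starts about as rarely as at those of all protein-coding genes. DNAJB9 alone had a summit within 1 kb of a start (1 of 44, 2.27%, 0.402 to 11.8%), beside 3.31% of all protein-coding genes (664). The interval holds that share. That peak had a pileup of 12 (6.20 to 21.0) and a fold enrichment of 7.14, and its summit lay 515 bp from the nearest start and 361 bp from the HSF1 summit. With 1299 peaks in that library, the lack of a peak at the other members says little about the mark.

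The partners of the DNAJ proteins in the chaperone cycle were counted in the same way. Of 38 genes of the HSP70 and HSP90 cycle, 24 had an HSF1 summit (63.2%, 47.3 to 76.6%), beside 25.4% of all protein-coding genes and 40.9% of DNAJ genes, whose interval overlaps that of the partners. They were made up of 6 of 12 HSP70 genes, 9 of 13 nucleotide exchange factors, 2 of 3 J-domain genes with other names (SEC63 and GAK) and 7 of 10 genes of the HSP90 cycle. Their median fold enrichment was 8.09 and median pileup 16, beside 7.29 and 14 in all bound genes. A CCAAT box lay near the summit in 10 of 24 (41.7%), beside 36.5% of all bound genes. A heat shock element lay near the summit in 4 of 24 (16.7%, 6.68 to 35.9%), HSPA8, HSPH1, ST13 and PTGES3, beside 2.37% of all bound genes. The interval overlaps that of the DNAJ summits, 0 to 17.6%. All 9 bases matched at HSPA8, HSPH1 and ST13. Of the 5 partner genes with a complete element at the canonical start, 4 were bound, beside neither of the 2 DNAJ genes with one. DNAJB1, which the choice of members left out, had 2 summits, of fold enrichment 8.88 and 5.24. The stronger lay at an alternative start, 10933 bp from the canonical start, and the weaker 227 bp from the canonical start. Each had a CCAAT box and at best 6 fixed bases of the element.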

How the data were processed

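HSF1 and H3K27ac CUT&Tag of untreated Huh7 cells, 1 library each, were used. Per the file headers, the authors ran MACS 2.1.4 on each library by itself, with hg38 and no control library (cutoff p = 1e-05), with tags shifted by -100 bp and extended to 200 bp and duplicates removed. The aligner is given as Bowtie2 in the methods. The deposited pileup is a signal, a count of extended tags with no depth scaling. Fold enrichment, as deposited, is a ratio to the local background. Columns of -log10 p-values and -log10 q-values were deposited too, and since the headers say that q-values were not calculated, the origin of the latter is not stated and they served only as a filter. The H3K27ac ChIP-seq lists are on hg19 per the file headers and were not used, and 195 HSF1 peaks on other sequences were left out.

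From these lists, summits were placed on GENCODE release 44 starts, and sequence was read from hg38. Where a gene had several summits, the strongest by fold enrichment was used. The canonical start is that of the Ensembl canonical transcript. CCAAT boxes and heat shock elements were searched within 100 bp of summits, 5 kb to either side, and from 250 bp upstream to 50 bp downstream of the canonical start. The element and the box were searched separately. Shares carry Wilson intervals and pileups exact Poisson intervals at 95%. Members, gene lists and comparisons were chosen with earlier results of these data known. The rule for named genes took in full the DNAJA genes, the 10 bound members of highest fold enrichment, members with an element at the summit or an H3K27ac peak, and those nearest to the distance limit. Promoter elements, GC content, CpG ratio, number of starts and the sequences of DNAJB5, DNAJB11, DNAJA1 and DNAJB6 were added after the data were seen. DNAJB3 is not among the protein-coding genes, and 1 gene of the chaperone lists is not reported here. Python 3.11.15, numpy 2.4.6, pandas 2.3.3 and scipy 1.17.1 were used, and the scripts were tested on simulated peaks and sequences.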

Additional observations from a re-analysis of the deposited data

How the results depend on the processing

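Of 36 alternative settings over 7 results, 27 stayed within the counting interval of the main setting and 9 moved outside it. The share of bound DNAJ genes ranged from 31.8% (outermost starts only) to 40.9%, as point values above those of all protein-coding genes. Intervals were computed at the main setting only, so whether the shares stand apart at the other settings was not tested. The share of all protein-coding genes moved to 24.3% within 500 bp, 26.3% within 2 kb, 21.5% with outermost starts and 22.8% with canonical starts. It was 22.0% for peaks with a -log10 q-value of at least 5 and 24.5% for a fold enrichment of at least 5. DNAJB11, DNAJC6, DNAJC14 and DNAJC22 were lost with outermost starts, DNAJB4 and DNAJC22 with canonical starts, DNAJC6 within 500 bp and DNAJC19 with the q-value filter. Leaving out the readthrough gene gave 39.5%. A longer CCAAT form left 5.56% of bound members with a box, beside 16.8% of all bound genes, 50 bp windows gave 22.2% beside 25.4%, and 200 bp windows gave 38.9% beside 49.4% of all bound genes. With 2 mismatches in the heat shock element, 22.2% of bound members held it, beside 19.3% of all bound genes. With 1 mismatch and 200 bp windows, 1 of 18 bound members (5.56%) held it, and the share of all bound genes at that setting was not computed. The H3K27ac share was 0% within 500 bp. With pileups of 8 to 27 tags, single libraries and no control, weaker occupancy could not be seen and specificity of the antibody was not tested.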
